A study of Mus musculus with 4 samples.

Results

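The cell cycle genes described here are 39 mouse genes whose transcripts are most abundant in cells that copy their DNA or divide. They were matched by symbol among the 31053 genes of the count matrices, and all 39 were present. By known role, 13 are S-phase genes (Mcm2, Mcm3, Mcm4, Mcm5, Mcm6, Mcm7, Pcna, Pclaf, Tyms, Rrm1, Rrm2, Tk1 and Dut). A further 21 are mitotic genes (Cdk1, Ccna2, Ccnb1, Ccnb2, Plk1, Aurka, Aurkb, Bub1, Bub1b, Cdc20, Ube2c, Cenpa, Cenpe, Cenpf, Birc5, Kif11, Tpx2, Nusap1, Tacc3, Top2a and Mki67). The last 5 (Stmn1, Hmgb2, Tubb5, Tuba1b and Cks1b) are broad members, abundant in dividing cells but also found in cells that do not divide.

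Their UMIs (unique molecular identifiers, which count captured transcripts) were read in 4 single-cell RNA libraries made with a kit that captures 5′ ends, 1 library per group. The pancreas control library held CD45+ leukocytes of 12-week-old pre-diabetic Ocabfl/fl females, and the pancreas CD4-Cre library held the same sort from Ocabfl/fl.CD4-Cre females, with 4 mice pooled in each. The lymph node control and lymph node CD4-Cre libraries held CD3 T cells taken from pancreatic lymph nodes by magnetic separation. Their donors were females of the same genotypes, pre-diabetic and 8 weeks old, with 5 mice pooled in each. All 4 groups carried the floxed Ocab allele, and the strain is not given in the sources used here. Pou2af1, also called Ocab, encodes a transcriptional coactivator best known from B cells, and a Cre driven by Cd4 sequences also acts in CD8 T cells because T cell precursors pass through a stage that expresses Cd4. Pancreas and lymph node differ in age, sort and tissue at once, so ratios were formed only within a tissue. With 1 pooled library per group there is no spread between animals, no test between genotypes was made, and every difference below compares 2 libraries.

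A resting T cell leaves quiescence when its receptor is engaged and first makes the machinery of DNA synthesis: the MCM helicase, the sliding clamp encoded by Pcna, and the enzymes that supply nucleotides. Transcripts for mitotic kinases, cyclins, kinetochore and spindle proteins accumulate later, in G2 and mitosis, and are largely lost when the cell returns to G1. The S-phase and mitotic genes thus mark partly different moments of the cycle.

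Promoters of the S-phase and mitotic genes differ in the elements they carry, and 4 are printed here to show them. Early genes are known for E2F sites, and late genes for CCAAT boxes together with the cell cycle genes homology region (CHR). The motifs searched, on both strands, were the letters CCAAT for the box of that name, the letters TTTGAA for the CHR and, for E2F, any of the words TTTCCCGC or TTTCGCGC or TTTGCCGC or TTTGGCGC. RefSeq promoters of build GRCm38.p6 were found for 34 of the 39 genes, and matches were counted in the 250 bases before the start. The upstream stretches below run 5′ to 3′ on the strand of the gene, with matches in capitals. They come from chr9:70421556-70421736 on the minus strand, chr2:164769686-164769920 on the plus strand, chr7:135716457-135716582 on the minus strand and chr8:75109341-75109506 on the plus strand, in this order.
Ccnb2: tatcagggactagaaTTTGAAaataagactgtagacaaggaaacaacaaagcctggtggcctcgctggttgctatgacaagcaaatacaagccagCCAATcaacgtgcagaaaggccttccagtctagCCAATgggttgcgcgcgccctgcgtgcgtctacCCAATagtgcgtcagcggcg
Ube2c: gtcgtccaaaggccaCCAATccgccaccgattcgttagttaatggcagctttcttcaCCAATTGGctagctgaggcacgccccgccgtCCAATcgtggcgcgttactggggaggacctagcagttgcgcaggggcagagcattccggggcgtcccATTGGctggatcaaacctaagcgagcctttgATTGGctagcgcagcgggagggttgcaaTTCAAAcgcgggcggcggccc
Mki67: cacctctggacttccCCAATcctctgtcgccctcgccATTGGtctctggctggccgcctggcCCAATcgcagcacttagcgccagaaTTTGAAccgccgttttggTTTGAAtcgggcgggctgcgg
Mcm5: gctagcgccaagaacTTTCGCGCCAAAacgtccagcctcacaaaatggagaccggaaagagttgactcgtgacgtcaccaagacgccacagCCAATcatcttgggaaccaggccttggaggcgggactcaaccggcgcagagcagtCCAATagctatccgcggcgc
Ccnb2 held 3 CCAAT and 1 CHR match, Ube2c 6 and 1 (a pair of its CCAAT matches overlaps), Mki67 3 and 2, and Mcm5 2 CCAAT and 2 overlapping E2F matches with no CHR. Over the genes with a promoter, CCAAT was present in 15 of 18 mitotic genes (83.3%) and 9 of 12 S-phase genes (75%), against 34.5% of 27025 genes. The CHR was present in 7 of 18 mitotic genes (38.9%) and 1 of 12 S-phase genes (8.33%), against 16.3% of all genes. An E2F match was present in 3 of 12 S-phase genes (25%) and 1 of 18 mitotic genes (5.56%), against 1.91% of all genes. These letters are descriptions of the windows, and binding was not measured.

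The matrices listed 3059 to 6963 barcodes and 14851217 to 32798133 UMIs per library, and 2843 to 6238 barcodes remained after filters on genes, mitochondrial share and doublets, with median UMIs from 3600 to 4635. Library pairs shared 21 to 70 barcode sequences, at most 1.31% of the smaller library. In T barcodes Pou2af1 was counted at 44 UMIs (4.89 UMIs per 1000000, or CPM) in pancreas control and 10 (0.618) in pancreas CD4-Cre, and in the lymph node at 64 (4.64) for control and 2 (0.080) for CD4-Cre, so the level follows the labels. In pancreas B barcodes it stood at 228 and 245 CPM. Barcodes were assigned to cell types by marker gates, with T barcodes defined by Cd3d, Cd3e and Cd3g. The gates as first written allowed at most 1 UMI of a myeloid list that included Cst3, and 49.9 to 53.2% of T barcodes held a Cst3 UMI. Those gates left out 18.4 to 21.3% of T barcodes, whose median UMIs (4550.5 to 5417) were above those kept (3267.5 to 4539). Among barcodes with at least 30 UMIs of the S-phase and mitotic genes they gave no gate to 39 of 54, 65 of 80, 21 of 32 and 25 of 32, in the order pancreas control, pancreas CD4-Cre, lymph node control and lymph node CD4-Cre. Depth-scaled gates, added after these values were seen, drop Cst3 from that list and let UMIs of another lineage reach 10% of the barcode's own marker UMIs; they left 0, 7, 1 and 0 of those barcodes without a gate. Both sets of gates are given for the summed levels, and the depth-scaled gates are used for everything else.

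In all T barcodes of the lymph node, the summed level of the 39 genes was lower in CD4-Cre than in control, with the largest ratio in the mitotic genes and the largest difference in CPM in the broad members. With the depth-scaled gates the sum stood at 2002 CPM in 2710 control barcodes and 1657 in 5205 CD4-Cre barcodes, which as log2 of CD4-Cre over control is -0.27 (95% interval -0.29 to -0.25). The mitotic genes stood at 145 and 53.5 CPM (log2 -1.43, -1.53 to -1.33). S-phase genes stood at 481 and 398 CPM (-0.27, -0.32 to -0.23), and the broad members at 1376 and 1205 (-0.19, -0.22 to -0.17). With the gates as first written the 39 genes stood at 1661 and 1501 CPM (-0.15, -0.17 to -0.12) and the mitotic genes at 59.0 and 41.0 (-0.52, -0.68 to -0.37), so the direction was the same and the mitotic difference smaller. Intervals are exact for counting error alone. They take each UMI as independent, whereas the mitotic UMIs came from few barcodes (below), so the true uncertainty is wider.

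In the pancreas the T barcodes of the 2 libraries differed little in sum, and the sign depended on the gates. With the depth-scaled gates the 39 genes stood at 2055.5 CPM in 2262 control barcodes and 2042 in 3996 CD4-Cre barcodes (log2 -0.01, -0.04 to 0.02), the S-phase genes at 544 and 522 (-0.06, -0.11 to -0.01), and the mitotic genes at 289 and 272 (-0.09, -0.16 to -0.02). With the gates as first written the 39 genes stood at 1225 and 1445 CPM (0.24, 0.20 to 0.28) and the mitotic genes at 58.5 and 84.0 (0.52, 0.35 to 0.70). Tissues are given side by side only, since age, sort and tissue differ: the mitotic level was higher in both pancreas libraries than in either lymph node library with the depth-scaled gates, but not with the gates as first written, where the controls stood at 58.5 and 59.0.

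CD4-only T barcodes hold a Cd4 UMI and none of Cd8a or Cd8b1. In the lymph node their 39-gene sum stood at 2092 CPM in 1273 control barcodes and 1615 in 2669 CD4-Cre barcodes (log2 -0.37, -0.41 to -0.34), and with the gates as first written at 1611 and 1446 (-0.16, -0.20 to -0.12). Their mitotic genes stood at 192 and 62.5 CPM (-1.62, -1.75 to -1.48) and their S-phase genes at 525 and 410.5 (-0.35, -0.42 to -0.29). With the gates as first written these ratios were -0.41 (-0.63 to -0.19) and -0.15 (-0.23 to -0.07). In the pancreas the CD4-only sum stood at 1691 CPM in 880 control barcodes and 1780 in 2023 CD4-Cre barcodes (0.07, 0.03 to 0.12), and with the gates as first written at 1126 and 1394.5 (0.31, 0.25 to 0.37). There the mitotic genes stood at 214 and 184 (-0.22, -0.35 to -0.09) and the S-phase genes at 451 and 474 (0.07, -0.01 to 0.16). With the gates as first written the mitotic genes stood at 50.2 and 84.2 (0.75, 0.46 to 1.04), so the sign turned. The S-phase ratio was then 0.34 (0.21 to 0.46).

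With the depth-scaled gates, CD8-only T barcodes of the pancreas had higher mitotic levels than its CD4-only barcodes. Their mitotic genes stood at 591 CPM in 430 control barcodes and 480 in 657 CD4-Cre barcodes (-0.30, -0.41 to -0.19), and their 39-gene sum at 3187 and 2644 (-0.27, -0.32 to -0.22). With the gates as first written that sum stood at 1483 and 1543 (0.06, -0.03 to 0.14), so the sign turned. With those gates the mitotic genes of CD8-only barcodes stood at 79.1 and 74.8 CPM (-0.08, -0.47 to 0.31). The CD4-only barcodes of pancreas CD4-Cre then stood at 84.2, so the order of these gates did not hold. Of the depth-scaled mitotic UMIs, 5 CD8-only barcodes held 61.1% in control and 64.8% in CD4-Cre. With the depth-scaled gates and more barcodes removed as doublets the ratio of the 39-gene sum was -0.81. In the lymph node the 39 genes stood at 2084 CPM in 691 control barcodes and 1817 in 1446 CD4-Cre barcodes (-0.20, -0.24 to -0.16), and with the gates as first written at 1826 and 1669 (-0.13, -0.18 to -0.08). The mitotic genes stood at 125 and 49.2 there (-1.35, -1.54 to -1.16), and with the gates as first written at 58.5 and 42.2 (-0.47, -0.76 to -0.19). Foxp3, the factor that defines regulatory T cells, marked few barcodes, and these had the highest mitotic level among the T gates of both lymph node libraries: 827 CPM in 155 control barcodes and 170 in 300 CD4-Cre barcodes (-2.29, -2.51 to -2.06). In the pancreas the Foxp3-positive level was 373 in 105 barcodes and 187 in 181 (-0.99, -1.31 to -0.68). With the gates as first written these ratios were -0.72 (-1.10 to -0.33) in the lymph node and 0.64 (-0.25 to 1.62) in the pancreas, where the sign turned. With the depth-scaled gates a single barcode held 384 of the 681 mitotic UMIs of the Foxp3-positive lymph node control barcodes.

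**Figure D1:**
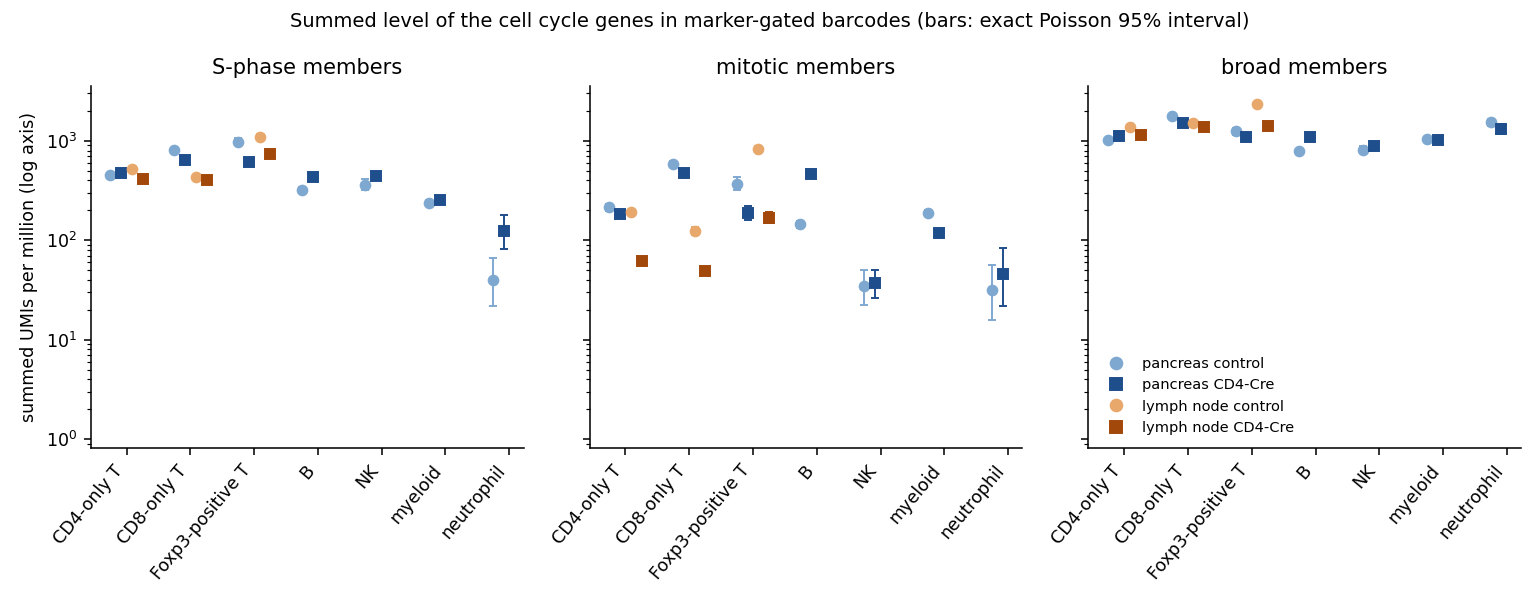
Summed level in CPM (log axis) of the S-phase, mitotic and broad members in marker-gated barcodes of each library, with exact Poisson intervals. The mitotic panel runs from 31.3 CPM in pancreas control neutrophil barcodes to 827 in Foxp3-positive lymph node control barcodes and the S-phase panel from 39.9 to 1093 in the same gates, while the broad panel runs only from 794 to 2335.

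The summed level of the broad members was not higher in all pancreas T barcodes than in neutrophil barcodes. In neutrophil barcodes, which are post-mitotic, the broad members stood at 1531 and 1326 CPM in pancreas control (120 barcodes) and CD4-Cre (72 barcodes), against 1223 and 1248 in all T barcodes, while the mitotic genes stood at 31.3 and 45.6 CPM. Single barcodes with many mitotic UMIs did hold many broad UMIs. The pancreas control T barcode with most mitotic UMIs held 288 broad UMIs of 22264 in all. Tubb5 and Tuba1b, which encode tubulins, gave 20.4 and 13.5% of the 39-gene UMIs in pancreas control T barcodes and 37.2 and 24.2% in lymph node CD4-Cre T barcodes. A Tubb5 UMI was present in 65.6 to 87.4% of T barcodes per library, against 0.384 to 2.65% for Mki67. Because the tubulins weigh so differently in the libraries, the S-phase and mitotic genes are given apart from here on.

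Among the other pancreas gates, the B barcodes differed most in the mitotic genes with the depth-scaled gates. Their mitotic genes stood at 145 CPM in 903 control barcodes and 462 in 1328 CD4-Cre barcodes (log2 1.67, 1.53 to 1.80), their S-phase genes at 323 and 429 (0.41, 0.31 to 0.51), and their 39-gene sum at 1262 and 1990 (0.66, 0.61 to 0.71). Myeloid barcodes had mitotic levels of 190 and 118 CPM (-0.69, -0.85 to -0.54) in 495 and 461 barcodes. NK barcodes had 34.5 and 36.8 (0.09, -0.65 to 0.86) in 198 and 264 barcodes, close to the neutrophil level, with S-phase genes at 364 and 442. Plasma barcodes numbered 19 and 28, with mitotic levels of 531 and 572 CPM; a single barcode gave 113 of 213 mitotic UMIs in control and 198 of 325 in CD4-Cre. The B and myeloid ratios depended on the gates: with the gates as first written, which kept 344 and 515 B barcodes, the mitotic level of B barcodes was 166 CPM in control and 57.2 in CD4-Cre (-1.53, -1.90 to -1.17), and that of myeloid barcodes 147 and 157 (0.10, -0.07 to 0.27). The 39-gene ratio of B barcodes with those gates was -0.13 (-0.24 to -0.03). The lymph node libraries, selected for CD3, held 41 B barcodes in control and 0 in CD4-Cre, and no ratio was formed for them.

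Few barcodes carried the mitotic sum. In all T barcodes, 50% of the mitotic UMIs lay in 9 barcodes of pancreas control, 12 of pancreas CD4-Cre and 7 of lymph node control, but in 108 of lymph node CD4-Cre. The top 1% of T barcodes held 78.2, 76.1, 73.8 and 41.8% of the mitotic UMIs in the same order, and 81.1, 78.8, 82.6 and 85.2% of T barcodes held none. The S-phase sum was spread more widely, with 50% of its UMIs in 72, 199, 229 and 644 barcodes. Only 37.1, 32.2, 23.6 and 27.5% of T barcodes held no S-phase UMI, and the median barcode held 1.

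**Figure D2:**
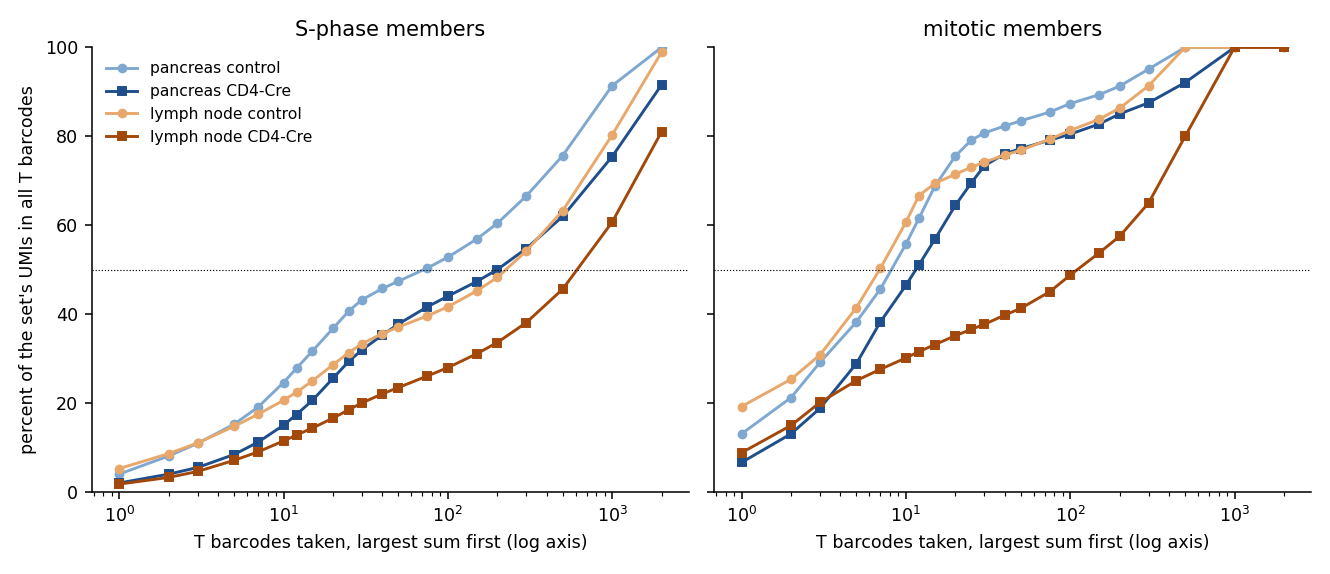
Cumulative percent of the S-phase (left) and mitotic (right) UMIs of all T barcodes, against the number of barcodes taken from the largest sum down (log axis), with 1 line per library. Both pancreas libraries and lymph node control pass 50% of the mitotic UMIs within 12 barcodes, and the lymph node CD4-Cre line passes it only at 108.

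The barcodes at the top of these curves held most of the mitotic genes at once. In pancreas control the leading T barcode held 342 mitotic UMIs of 22264 in all, with all 21 mitotic genes detected, and it carried Cd8a and Cd8b1 UMIs. The leading barcode of pancreas CD4-Cre held 295 mitotic UMIs of 26666, again with all 21 detected. In lymph node control the leading barcode held 384 mitotic UMIs of 50223, which is 19.3% of all mitotic UMIs in the T barcodes of that library, beside 353 S-phase UMIs, 15 Foxp3 UMIs and 8 Cd4 UMIs. The leading barcode of lymph node CD4-Cre held 119 mitotic UMIs of 27808, with 16 of 21 mitotic genes detected and 183 S-phase UMIs. These barcodes are deep, and whether each is 1 cell was not tested beyond the doublet score, which had removed 3, 14, 0 and 0 barcodes with at least 30 S-phase and mitotic UMIs in the 4 libraries.

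Barcodes past 30 mitotic UMIs numbered 19 of 2262 (0.840%, exact Clopper-Pearson 95% interval 0.506 to 1.31%) in pancreas control and 29 of 3996 (0.726%, 0.487 to 1.04%) in pancreas CD4-Cre. In the lymph node they numbered 12 of 2710 (0.443%, 0.229 to 0.772%) for control and 4 of 5205 (0.0768%, 0.0209 to 0.197%) for CD4-Cre, where the intervals do not overlap. Such intervals cover the counting of barcodes within 1 pooled library. They hold no spread between animals, so they cannot decide on a difference between genotypes. Barcodes past 30 S-phase UMIs numbered 26, 32, 26 and 29, so the lymph node libraries were closer for S-phase barcodes (0.959%, 0.628 to 1.40%, and 0.557%, 0.373 to 0.799%) than for mitotic ones. Each T barcode with at least 30 S-phase and mitotic UMIs was also placed by the mitotic share of those UMIs. That share was at least 50% in 11 of 31 such barcodes in pancreas control, 19 of 45 in pancreas CD4-Cre and 8 of 29 in lymph node control, but in 1 of 31 in lymph node CD4-Cre. Its median was 42.3, 36.8, 10.9 and 8.43%. Most high barcodes of both lymph node libraries thus lay on the S-phase side, and the control library also held a mitotic group.

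Thinning each barcode to 1000 UMIs takes depth out of such counts. A barcode with at least 3 thinned UMIs of the 34 S-phase and mitotic genes is called a carrier here. Carriers made up 57 of 2249 T barcodes (2.53%, 1.93 to 3.27%) in pancreas control and 86 of 3978 (2.16%, 1.73 to 2.66%) in CD4-Cre, which differ by -0.373 percentage points (Newcombe 95% interval -1.21 to 0.388). In the lymph node they made up 50 of 2700 (1.85%, 1.38 to 2.43%) and 66 of 5180 (1.27%, 0.987 to 1.62%), a difference of -0.578 points (-1.22 to -0.0161). With the gates as first written the differences were 0.213 points (-0.429 to 0.768) in the pancreas and -0.275 (-0.882 to 0.238) in the lymph node. Neutrophil barcodes, the background, held 0 carriers of 119 in pancreas control, which allows a share of up to 3.05%, and 1 of 70 in CD4-Cre (0.0362 to 7.70%). Their median UMIs were 2408.5 and 2107.5, below the 3441 and 3533 of T barcodes. Without thinning, T barcodes with at least 5 such UMIs made up 5.66, 6.36, 7.16 and 5.76%. Between 24 and 40 carriers per library stood exactly at 3 thinned UMIs, and 113 to 253 barcodes stood just below, at 2.

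Split by phase, the thinned carriers repeat the pattern of the sums. At least 3 mitotic UMIs were found in 20 of 2249 T barcodes of pancreas control (0.889%, 0.544 to 1.37%), 29 of 3978 of pancreas CD4-Cre (0.729%, 0.489 to 1.05%), 14 of 2700 of lymph node control (0.519%, 0.284 to 0.868%) and 6 of 5180 of lymph node CD4-Cre (0.116%, 0.0425 to 0.252%). At least 3 S-phase UMIs were found in 37, 60, 36 and 56 barcodes (1.65, 1.51, 1.33 and 1.08%), with overlapping intervals in each tissue. Foxp3-positive barcodes gave 9 carriers of 154 in lymph node control (5.84%, 2.71 to 10.8%) and 7 of 299 in CD4-Cre (2.34%, 0.946 to 4.76%), a difference of -3.50 points (-8.54 to 0.147). T barcodes with neither Cd4 nor Cd8 UMIs gave 2.14 and 0.510% in the lymph node, a difference of -1.63 points (-3.15 to -0.439). CD4-only barcodes gave 1.65 and 1.31% there, a difference of -0.337 points (-1.27 to 0.426). With the gates as first written the CD4-only difference was 0.283 points (-0.498 to 0.891), so its sign turned. CD8-only carriers were 1.45 and 1.53% there, a difference of 0.0753 points (-1.23 to 1.09).

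**Figure D3:**
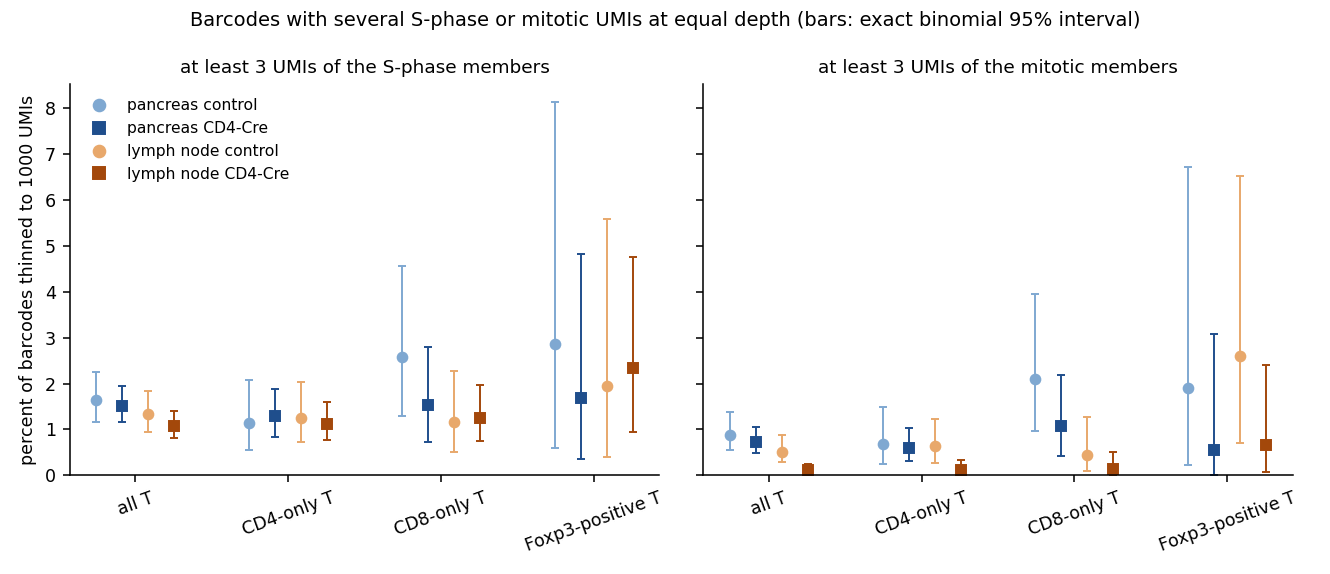
Percent of barcodes, thinned to 1000 UMIs, with at least 3 UMIs of the S-phase (left) or mitotic (right) members, by T gate and library, with exact binomial intervals. In all T barcodes the lymph node CD4-Cre library sits at 0.116% for the mitotic members against 0.519% in control, while the S-phase shares of those libraries overlap.

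Leaving out the few leading barcodes shows what the lymph node ratio rests on (these ratios were added after the values were seen). The mitotic log2 ratio of all lymph node T barcodes was -1.43 with every barcode, -1.26 without the barcode of largest 39-gene sum in each library, -1.14 without the 5 largest, -1.10 without the Foxp3-positive barcodes and -0.40 (-0.55 to -0.24) without the top 1%. In CD4-only barcodes the ratio went from -1.62 to -1.32, -0.82, -0.98 and -0.34 (-0.57 to -0.12) in the same order. In CD8-only barcodes it went from -1.35 to -1.18 without 1 barcode, to -0.02 (-0.30 to 0.26) without 5 and to -0.23 (-0.52 to 0.05) without the top 1%, which is 7 control and 15 CD4-Cre barcodes. Leaving out 5 barcodes takes a larger share of the smaller control library. After the top 1% was left out, the mitotic level of all T barcodes was 45.5 CPM in control and 34.6 in CD4-Cre.

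**Figure D4:**
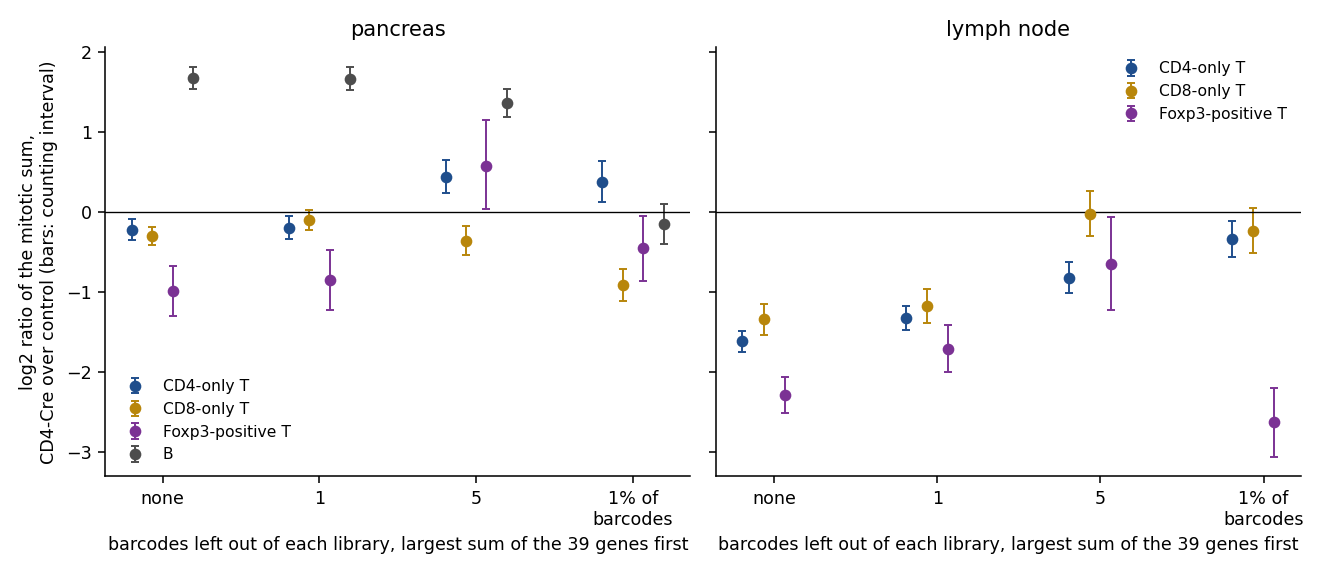
Log2 ratio of the summed mitotic members, CD4-Cre over control, with every barcode and without the barcodes of largest 39-gene sum in each library, with exact conditional intervals for counting error. At 1% the ratios of pancreas Foxp3-positive, pancreas B, lymph node CD4-only and lymph node CD8-only barcodes lie nearer 0 than with every barcode. Those of pancreas CD4-only (-0.22 with every barcode, 0.38 at 1%) and CD8-only barcodes (-0.30 and -0.91) lie farther from 0. So does that of lymph node Foxp3-positive barcodes (-2.29 and -2.62), where 1% means only 2 control and 3 CD4-Cre barcodes removed.

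In the pancreas the mitotic ratio of CD4-only barcodes turned from -0.22 to 0.44 (0.24 to 0.64) without 5 barcodes per library and was 0.38 (0.12 to 0.63) without the top 1%. That of CD8-only barcodes was -0.11 without 1 barcode, -0.36 without 5 and -0.91 (-1.11 to -0.72) without the top 1%. For B barcodes it was 1.36 (1.19 to 1.54) without 5 and -0.16 (-0.40 to 0.09) without the top 1%, which is 10 control and 14 CD4-Cre barcodes. The mitotic difference of the B barcodes therefore lay within 1% of them, where 13 CD4-Cre barcodes held at least 30 mitotic UMIs (0.979%, 0.522 to 1.67%) against 5 in control (0.554%, 0.180 to 1.29%), with overlapping intervals. Without the top 1% the S-phase ratio of B barcodes was still 0.31 (0.18 to 0.44) and that of the broad members 0.28 (0.20 to 0.36).

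Gene by gene, a member was counted as lower or higher where its CPM differed at least 2-fold, provided that both libraries together held 20 or more of its UMIs. In all lymph node T barcodes 19 of 37 members were at least 2-fold lower in CD4-Cre and 0 were higher, against 2.15% and 0.559% of all genes so measured. The 19 were 16 of 19 mitotic genes and 3 of 13 S-phase genes, and the median log2 ratio was -1.84 for mitotic genes and -0.23 for S-phase genes, against -0.09 for all genes. In CD4-only barcodes 20 of 37 were lower and 0 higher (2.11% and 0.695% of all genes), and in CD8-only barcodes 11 of 31 were lower and 0 higher (1.89% and 0.574%). In Foxp3-positive barcodes 21 of 33 were lower and 0 higher (2.72% and 2.11%), with 15 of 15 mitotic genes among them. In that gate 5 control barcodes held 92.7% of the mitotic UMIs. Without the 5 largest barcodes of each library its mitotic ratio was -0.65 (-1.23 to -0.06), on 50 and 53 UMIs. Its 39-gene ratio was then 0.01 (-0.10 to 0.12). The gates as first written gave 4 lower members in CD4-only and 0 in CD8-only barcodes. The shares of all genes above are for the depth-scaled gates, and none is given for the gates as first written. The members are counted in the same few barcodes, so they are not independent of each other, and a member measured through the control library alone had to come out low.

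In the pancreas 0 of 39 members were 2-fold lower or higher in all T barcodes (1.45% and 1.12% of all genes). In CD4-only barcodes 1 of 37 was lower (Kif11) and 0 higher (1.38% and 1.09%). The gates as first written gave 0 lower and 5 higher there, without a share of all genes to set beside them. In CD8-only barcodes 0 of 38 were lower or higher (2.1% and 2.51%). Foxp3-positive barcodes gave 9 of 22 lower and 0 higher (2.84% and 3%), and none of the 7 cyclin and kinase genes reached 20 UMIs. In B barcodes 19 of 39 were higher and 0 lower (2.19% and 1.06%), namely 18 of 21 mitotic genes and Cks1b, a subunit of cyclin-dependent kinases.

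**Figure D5:**
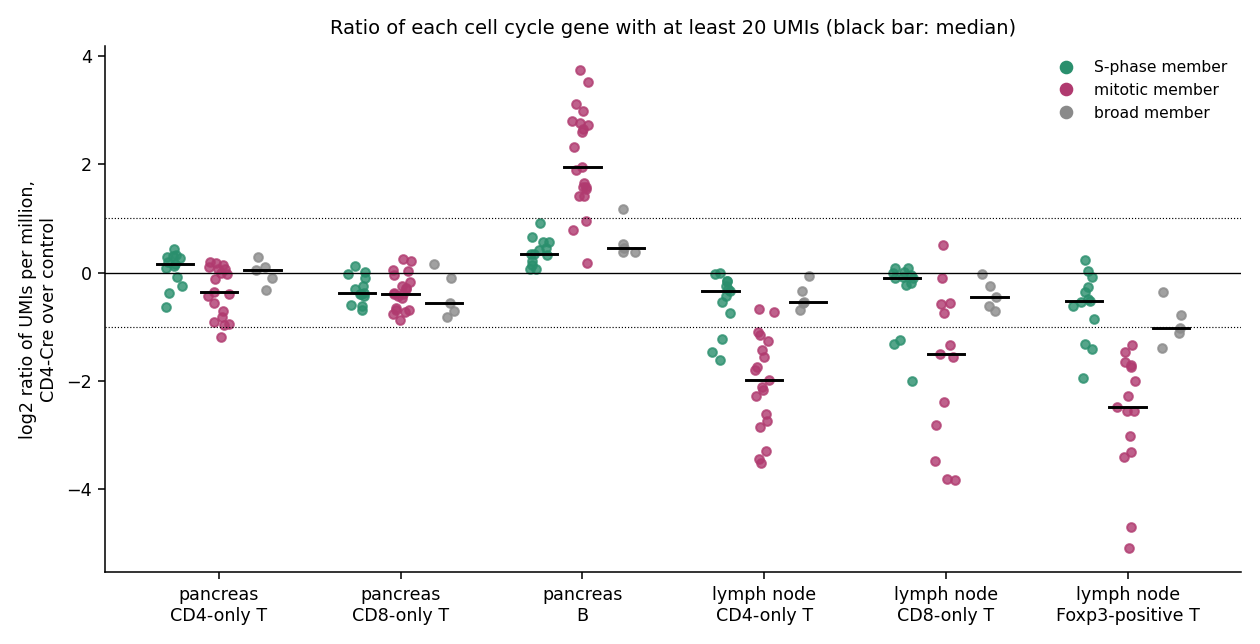
Log2 ratio of CPM, CD4-Cre over control, for each member with 20 or more UMIs in the pair of libraries, by tissue and gate; points are genes, black bars medians, and dotted lines 2-fold. The mitotic genes lie below 0 in the lymph node gates, apart from Cdk1 in CD8-only barcodes, and above 0 in pancreas B barcodes (depth-scaled gates; the summed B ratio is -1.53 with the gates as first written), and the S-phase genes lie closer to 0.

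Most replication factors were less than 2-fold lower in all lymph node T barcodes, with a median log2 ratio of -0.22. The counting intervals of 6 of 8 lay below 0. Of the 8 (the MCM helicase subunits, Pcna and Pclaf), 1 was 2-fold lower in CD4-only barcodes, with a median log2 ratio of -0.27. Pcna, the sliding clamp of DNA polymerases, had 752 UMIs (54.6 CPM) in all control T barcodes and 1303 (52.1) in CD4-Cre (log2 ratio -0.07, -0.20 to 0.07). It was 0.00 in CD4-only, 0.02 in CD8-only and 0.03 in Foxp3-positive barcodes. Mcm5, a helicase subunit, had 375 (27.2) and 627 (25.1) UMIs (log2 ratio -0.12, -0.30 to 0.07). Pclaf, which binds the clamp and is scarce outside S phase, had 261 (18.9) and 216 (8.64) (log2 ratio -1.13, -1.40 to -0.87). Its UMIs lay in 25 and 22 barcodes, against 537 and 1001 for Pcna, and 68.2 and 65.7% of them lay in 5 barcodes.

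Among the 5 genes of nucleotide supply the same split was seen. Tyms (thymidylate synthase) had 238 UMIs (17.3 CPM) and 310 (12.4) in all lymph node T barcodes (log2 ratio -0.48, -0.73 to -0.23), found in 131 and 225 barcodes. Rrm2, the subunit of ribonucleotide reductase tied to S phase, had 246 (17.9) and 174 (6.96) (log2 ratio -1.36, -1.65 to -1.07), found in 47 and 45 barcodes. Rrm1, its partner, had 361 (26.2) and 497 (19.9) (log2 ratio -0.40, -0.60 to -0.20). Tk1, a thymidine kinase, stood at -1.52 (-1.93 to -1.11). So the 3 S-phase genes at least 2-fold lower (Pclaf, Rrm2 and Tk1) were those counted in few barcodes, while each of the other 10 had UMIs in 131 or more barcodes of both libraries.

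The cyclin and kinase genes were among the lowest in the lymph node. Of 7, 6 were at least 2-fold lower in CD4-only barcodes, against 2.11% of all genes, with a median log2 ratio of -2.62. These values, like the other single-gene values, use the depth-scaled gates. With the gates as first written the summed mitotic ratio of CD4-only barcodes was -0.41 (-0.63 to -0.19). Ccnb2, a cyclin B that partners Cdk1 and carries the promoter printed above, had 125 UMIs (9.07 CPM) in control T barcodes and 20 (0.80) in CD4-Cre (log2 ratio -3.50, -4.26 to -2.81), from 18 and 11 barcodes. Cdk1, the mitotic kinase, had 75 (5.44) and 55 (2.20) (log2 ratio -1.31, -1.84 to -0.79). It was -2.11 in CD4-only barcodes (52 and 23 UMIs) and 0.50 (-0.57 to 1.71) in CD8-only barcodes (10 and 29 UMIs), so it was not lower in CD8-only barcodes. Aurka, a spindle pole kinase, was the least different of the 7 in CD4-only barcodes (-0.72, -1.67 to 0.24).

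Checkpoint, anaphase and kinetochore genes showed similar sizes. Ube2c, the ubiquitin-conjugating enzyme of the anaphase-promoting complex, had 121 UMIs (8.78 CPM) and 32 (1.28) in lymph node T barcodes (log2 ratio -2.78, -3.39 to -2.21). A single control barcode held 46 of the 121, and in Foxp3-positive barcodes Ube2c had 67 and 4 UMIs (-4.70, -6.62 to -3.28). Birc5, survivin of the chromosomal passenger complex, had 201 (14.6) and 80 (3.20) (log2 ratio -2.19, -2.58 to -1.81), from 21 and 19 barcodes. Cenpf, a kinetochore protein, was the lowest in CD4-only barcodes with 18 and 3 UMIs (-3.52, -5.92 to -1.74). Cenpa, the centromeric histone, had 411 and 502 UMIs in 271 and 473 barcodes (log2 ratio -0.57, -0.76 to -0.38), the smallest difference among the kinetochore genes. Bub1 and Bub1b, spindle checkpoint kinases, stayed under 20 UMIs.

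Spindle and chromosome genes were at least 2-fold lower in 6 of 6 cases in CD4-only barcodes with the depth-scaled gates, against 2.11% of all genes. Mki67, which coats mitotic chromosomes, had 159 UMIs (11.5 CPM) and 51 (2.04) in lymph node T barcodes (log2 ratio -2.50, -2.98 to -2.04), from 29 barcodes of 2710 and 20 of 5205. In CD8-only barcodes it had 48 and 7 UMIs (-3.81, -5.20 to -2.66), from 5 and 4 barcodes. Without the 5 largest barcodes of each library that ratio was 0.53, on fewer UMIs. Top2a, a topoisomerase that untangles chromosomes, had 209 (15.2) and 162 (6.48) (log2 ratio -1.23, -1.53 to -0.92). Nusap1, a spindle protein, was the lowest gene of CD8-only barcodes, with 21 and 3 UMIs (-3.84, -6.23 to -2.10), all from 3 and 2 barcodes. Stmn1, a tubulin-binding broad member, had 946 (68.7) and 1182 (47.3) UMIs (log2 ratio -0.54, -0.66 to -0.41), and Tuba1b had 6658 and 10017 (-0.27, -0.31 to -0.22). Tubb5 stood at -0.02 (-0.06 to 0.02).

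In pancreas T barcodes the same genes lay near each other in the 2 libraries. In all T barcodes Mki67 had 258 UMIs (28.6 CPM) in control and 429 (26.5) in CD4-Cre (log2 ratio -0.11, -0.34 to 0.12). Top2a had 300 (33.3) and 442 (27.3) (log2 ratio -0.29, -0.50 to -0.07). Ccnb2 had 106 and 162 (-0.23, -0.60 to 0.13), Cdk1 102 and 178 (-0.04, -0.40 to 0.32), and Ube2c 277 and 559 (0.17, -0.04 to 0.38). Birc5 had 228 and 306 (-0.42, -0.67 to -0.17), Rrm2 231 and 362 (-0.20, -0.44 to 0.05) and Stmn1 954 and 1397 (-0.30, -0.42 to -0.18). Pcna had 596 and 867 (-0.31, -0.46 to -0.15), Mcm5 240 and 443 (0.04, -0.19 to 0.27), and Tyms 220 and 401 (0.02, -0.22 to 0.26). Tuba1b had 2492 and 4456 (-0.01, -0.08 to 0.06).

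Within pancreas CD4-only barcodes the lowest genes were Kif11, a spindle motor, with 19 and 19 UMIs (-1.19, -2.18 to -0.19), Cenpe, a kinetochore motor, with 19 and 22 (-0.98, -1.93 to -0.01), and Ccnb2 with 27 and 32 (-0.94, -1.73 to -0.15). The highest were the helicase subunits Mcm4 (127 and 393 UMIs, 0.44, 0.15 to 0.74), Mcm6 (206 and 589, 0.33, 0.10 to 0.56) and Mcm7 (115 and 323, 0.30, -0.01 to 0.62). Kif11 was at 2.12 with the gates as first written, so its direction rests on which barcodes enter. Within CD8-only barcodes the lowest were Tpx2, a spindle assembly factor (39 and 34 UMIs, -0.88, -1.59 to -0.18), Cks1b (86 and 78, -0.82, -1.28 to -0.36) and Ccna2, a cyclin of S phase and G2 (85 and 80, -0.77, -1.23 to -0.31). The highest were Aurka (11 and 21, 0.25, -0.87 to 1.45), Ube2c (135 and 252, 0.22, -0.09 to 0.53) and Tubb5 (1093 and 1959, 0.16, 0.05 to 0.27). Mki67 had 122 and 121 UMIs there (-0.69, -1.07 to -0.32) and Stmn1 353 and 346 (-0.71, -0.93 to -0.49).

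In pancreas B barcodes, again with the depth-scaled gates that set the direction there, Ube2c had 23 UMIs (6.12 CPM) in control and 376 (70.7) in CD4-Cre (log2 ratio 3.53, 2.92 to 4.20), from 12 and 14 barcodes. Mki67 had 51 and 229 UMIs (1.66, 1.22 to 2.13) from 15 and 16 barcodes, Cdk1 8 and 79 (2.80, 1.75 to 4.06) and Top2a 55 and 226 (1.54, 1.11 to 1.99). Pcna had 135 and 199 (0.06, -0.26 to 0.38) and Mcm5 79 and 142 (0.34, -0.06 to 0.76). Thus the number of B barcodes with an Mki67 UMI was similar, out of 903 in control and 1328 in CD4-Cre. Their share was therefore lower in CD4-Cre, and the CD4-Cre barcodes held more UMIs each.

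Other cell cycle genes, from lists outside the 39, were counted in the same barcodes with the depth-scaled gates, so they are not independent of the members. Summed, the 50 other mitotic genes stood at 584 and 484 CPM in all lymph node T barcodes (log2 -0.27, -0.31 to -0.23). The mitotic members differed more there (-1.43). In lymph node CD8-only barcodes 3 of 24 other mitotic genes were at least 2-fold lower and 0 higher, against 1.89% and 0.574% of all genes. In lymph node T barcodes 19 of 42 other mitotic genes were at least 2-fold lower and 0 higher (median log2 -0.77), against 2.15% and 0.559% of all genes, with Kif4 (17 and 3 UMIs, -3.36) and Hmmr (20 and 8, -2.18) lowest and H2afx (-0.06) and Smc4 (0.00) highest. None of 31 other S-phase genes was 2-fold lower or higher (median -0.17), with Cdc6 (45 and 41 UMIs, -0.99) and Clspn (34 and 36, -0.78) lowest and Mcm10 (0.31) highest. None of 8 G1 cyclins and kinases was (median -0.07). Of 18 genes that hold cells out of cycle, 2 were lower: Rb1, the retinoblastoma protein, with 272 and 196 UMIs (-1.33, -1.60 to -1.06), and Cdkn1a, the inhibitor p21, with 29 and 21 (-1.32, -2.21 to -0.46). In pancreas B barcodes 27 of 42 other mitotic genes were at least 2-fold higher (median 1.52) and 1 of 28 other S-phase genes was (median 0.29), against 2.19% of all genes. In pancreas T barcodes 0 of 49 other mitotic and 0 of 32 other S-phase genes were lower or higher, against 1.45% and 1.12% of all genes.

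Genes the carrier rule did not use tell what else those barcodes held, after thinning to 1000 UMIs. Other S-phase genes were 5.69, 5.13, 5.70 and 4.84 times as high in carriers as in other T barcodes, in the order pancreas control, pancreas CD4-Cre, lymph node control and lymph node CD4-Cre. Other mitotic genes were 6.24, 5.65, 5.60 and 2.78 times as high, so the lymph node CD4-Cre carriers stood lowest there. Genes of naive T cells were at 0.294, 0.428, 0.509 and 0.755 times the level of other T barcodes, and genes of activated T cells at 1.47, 1.40, 1.63 and 1.19 times. Foxp3-positive barcodes made up 8.77, 6.98, 18.0 and 10.6% of carriers against 4.56, 4.45, 5.47 and 5.71% of other T barcodes. Carriers were deeper before thinning, with median UMIs of 8140, 9150.5, 10096 and 5423 against 3432.5, 3526.5, 4671 and 4491.

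Several measures moved with genotype beside these values, and their part in the results was not tested. Erythroid genes stood at 574 CPM in control and 0 in CD4-Cre in lymph node T barcodes. They stood at 565 and 0.494 in all pancreas T barcodes and at 299 and 2.07 in pancreas B barcodes. In pancreas CD4-only barcodes they stood at only 2.054 and 0.38664 CPM, and in CD8-only barcodes at 1.0038 and 0.93783. The erythroid difference of all pancreas T barcodes thus lay mostly outside these gates. Dissociation stress genes stood at 813 and 626 in lymph node T barcodes. In pancreas CD8-only barcodes genes of the exocrine pancreas stood at 182 CPM in control and 4125 in CD4-Cre (158 and 1012 in all pancreas T barcodes, 363 and 489 in B barcodes), and myeloid markers at 240 and 560. In pancreas T barcodes the effector T cell list stood 0.68 lower on the log2 scale in CD4-Cre, with 3 of 14 genes at least 2-fold lower against 1.45% of all genes. B cell markers stood at 10.9 to 14.7 CPM in the T barcodes of the 4 libraries, against 7776 and 8271 in pancreas B barcodes. The mitochondrial share was 2.55 to 2.75%.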

How the data were processed

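The deposited matrices hold raw UMI counts per gene and barcode, without normalization, per the file headers and values. The matrix headers name software version 3.0.0, and the submitters' processing notes name Cell Ranger and build mm10. Depth per library and the precision of each value are given with the results.

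Barcodes with at least 500 genes and at most 10% mitochondrial UMIs were kept. Doublets were scored against 2 simulated doublets per barcode over 2000 variable genes and 30 components, and the highest scores were removed at 0.8% per 1000 listed barcodes. UMIs were summed per marker gate and scaled to 1000000 UMIs of the gate (CPM). Ratios carry exact conditional intervals, sums Poisson intervals and shares Clopper-Pearson intervals, all at 95% and for counting error only. For a count of 0 in a ratio the limit was set at 3 counts. The code was tested on simulated counts. Python 3.11.15 with numpy 2.4.6, scipy 1.17.1 and scikit-learn 1.9.0 was used. R 4.3.3 with edgeR 4.0.16 and DESeq2 1.42.0 gave alternative library sizes only.

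The first gates required at least 2 UMIs of Cd3d, Cd3e and Cd3g and at most 1 UMI each of a B and a myeloid list. The depth-scaled gates, the ratios without leading barcodes and the carriers by phase were added after seeing the data. Genes named are 12 members fixed by rule, the 3 lowest and 3 highest in each CD4-only and CD8-only comparison, and the 2 lowest and 2 highest of other lists, of which 1 is not reported here; others named were chosen after their values were seen. The members and all lists were chosen with earlier results of these data known. Promoter sequences are from RefSeq.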

Additional observations from a re-analysis of the deposited data

Results flagged for a closer look

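Among all T, CD4-only and CD8-only barcodes, the 39-gene sum had opposite signs in the tissues, with both counting intervals clear of 0, in 3 comparisons. These 3 share barcodes and libraries, and the intervals are too narrow because they take each UMI as independent. The difference between tissues was not tested, since age, sort and tissue change together. In all T barcodes with the gates as first written the value for CD4-Cre over control, on the log2 scale, was 0.239 in the pancreas and -0.146 in the lymph node. In CD4-only T barcodes it was 0.308 and -0.156 with those gates, and 0.074 and -0.374 with the depth-scaled gates. In all T barcodes of the pancreas the depth-scaled value was -0.01 (-0.04 to 0.02).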

How the results depend on the processing

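No paired analysis was possible because each group is 1 library. No library was left out, since each is its whole group. All values are log2 ratios of the 39-gene sum unless named otherwise, the causes of the shifts were not tested, and ratios that rest on few barcodes are limited by those barcodes rather than by depth.

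With the gates as first written, all pancreas T barcodes (0.239) gave 0.187 with doublets removed at 1.6%, 0.163 with strict gates (0 UMIs of other lineages, at least 3 T marker UMIs), 0.19 with equal weight per barcode, 0.199 without the 5 largest barcodes and, reversed, -0.00947 with depth-scaled gates. Pancreas CD4-only barcodes (0.308) gave 0.409 without the broad members, 0.233 without 5 barcodes and 0.074 depth-scaled. Pancreas CD8-only barcodes (0.0572) gave -0.0893 strict, 0.345 with CD4 and CD8 called after thinning, -0.108 without the broad members and -0.27 depth-scaled. All lymph node T barcodes (-0.146) gave -0.113 strict, -0.0631 with TMM, -0.0616 with DESeq2 size factors, -0.217 without the broad members, -0.102 without 5 barcodes and -0.273 depth-scaled. Lymph node CD4-only barcodes (-0.156) gave -0.102 strict, -0.291 with thinned calls, -0.0867 with TMM, -0.0905 with DESeq2, -0.0782 with equal weight, -0.0662 without 5 barcodes and -0.374 depth-scaled. Lymph node CD8-only barcodes (-0.129) gave -0.00667 strict, -0.0351 with TMM, -0.0327 with DESeq2, -0.0683 without 5 barcodes and -0.197 depth-scaled. The lymph node carrier difference (-0.275 points) was -1.03 thinned to 2000 UMIs and -0.899 unthinned with at least 5 UMIs.

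With the depth-scaled gates, all pancreas T barcodes (-0.00947) gave -0.0479 with at least 1000 genes and at most 5% mitochondrial UMIs, -0.123 with 1.6% doublets, 0.11 with equal weight, -0.0685 without the broad members, 0.0875 without 5 barcodes and 0.239 with the first gates. Pancreas CD4-only barcodes (0.074) gave 0.206 with 1.6% doublets, 0.46 with thinned calls, 0.192 with equal weight, -0.0165 without the broad members, 0.322 without 5 barcodes and 0.308 with the first gates. Pancreas CD8-only barcodes (-0.27) gave -0.81 with 1.6% doublets, 0.066 with thinned calls, -0.155 with equal weight, -0.326 without the broad members, -0.179 without 5 barcodes and 0.0572 with the first gates. All lymph node T barcodes (-0.273) gave -0.313 with 1.6% doublets, -0.18 with TMM, -0.178 with DESeq2, -0.144 with equal weight, -0.468 without the broad members, -0.176 without 5 barcodes and -0.146 with the first gates. Lymph node CD4-only barcodes (-0.374) gave -0.41 with 1.6% doublets, -0.666 with thinned calls, -0.297 with TMM, -0.298 with DESeq2, -0.133 with equal weight, -0.6 without the broad members, -0.145 without 5 barcodes and -0.156 with the first gates. Lymph node CD8-only barcodes (-0.197) gave -0.242 with 1.6% doublets, -0.274 with thinned calls, -0.0925 with TMM, -0.0899 with DESeq2, -0.116 with equal weight, -0.309 without the broad members, -0.0444 without 5 barcodes and -0.129 with the first gates. In that gate DESeq2 factors moved the median of all genes by 0.108 and TMM by 0.105 on the log2 scale. Unthinned carrier differences were 0.698 points in the pancreas and -1.39 in the lymph node.

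Some single genes reversed. In pancreas CD4-only barcodes Top2a was 0.418 with 1.6% doublets, 2.2 with thinned calls, 0.379 without 5 barcodes and 0.763 with the first gates, and Stmn1 0.158, 0.58, 0.342 and 0.416 in the same order. Birc5 was 1.57 with thinned calls and 0.794 without 5 barcodes, Kif11 1.85 with thinned calls and 2.12 with the first gates, and Cenpe 1.85 with thinned calls. In pancreas CD8-only barcodes Mki67 was 0.908 with the first gates, Top2a 0.144 and Birc5 0.286 with thinned calls, Rrm2 0.0442 without 5 barcodes and 2.41 with the first gates, Ccna2 5.64e-05 with thinned calls and 0.908 with the first gates, and Tubb5 -0.0465 with 1.6% doublets. In lymph node CD4-only barcodes Tubb5 was 0.0172 with TMM, 0.0154 with DESeq2 and 0.0139 without 5 barcodes. In lymph node CD8-only barcodes Mki67 was 0.531, Top2a 0.242, Ube2c 2.65 and Stmn1 0.517 without 5 barcodes, and Top2a 0.0983, Ube2c 0.221 and Rrm2 0.221 with the first gates.

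Members at least 2-fold lower in pancreas CD4-only barcodes (1) were 0 with at least 50 UMIs and 0 with the first gates, and those higher (0) were 1 with no minimum and 5 with the first gates. Lower members in pancreas CD8-only barcodes (0) were 1 with no minimum. Those in lymph node CD4-only barcodes (20) were 13 with at least 50 UMIs and 4 with the first gates. Those in lymph node CD8-only barcodes (11) were 19 with no minimum, 5 with at least 50 UMIs and 0 with the first gates. No share of all genes is given for the other minimums or the first gates.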
